A study of Ciona robusta with 15 samples.

Results

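Mrf is the muscle regulatory factor of the ascidian Ciona robusta, measured here as the single gene model KH.C14.307 of 15284 in the deposited tables. The gene is picked out by its identifier and not by a threshold on measured values, but it was chosen with earlier results of these data known. None of the tables used here pairs KH identifiers with gene names, so every gene name below was entered by hand beside its identifier and was not checked against an annotation. Whole embryos were profiled by RNA sequencing at Hotta stage 19.5, after growth at 21 °C, with 300 embryos per sample. All 15 samples carried Etr1-driven plasmids, in which an enhancer of a neural gene places the coding sequence in the nervous system, and the plasmids were introduced by electroporation of fertilised eggs. The 5 groups of 3 libraries received Etr1>H2B-Venus (control), Etr1>Venus-Bra (Bra), Etr1>Venus-Bra with Etr1>Foxa.a-Myc (Bra+Foxa.a), Etr1>Venus-Bra with Etr1>Mnx-HA (Bra+Mnx), or all 3 factor plasmids (called 3-factor embryos below). Control embryos carried a histone-tagged Venus and the others a Venus joined to Bra, and the share of embryos or cells that took up a plasmid is not given in the labels. The series asks how Bra acts together with Foxa.a and Mnx in notochord fate.

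Mrf is the Ciona member of the MyoD family of basic helix-loop-helix transcription factors, which bind E-box DNA and switch on the contractile genes of muscle. In the ascidian embryo it acts in the tail muscle lineage, downstream of the maternal muscle determinant and T-box factors of the Tbx6 family, and after metamorphosis it also marks the muscles of the siphons. The tail muscle flanks the notochord and the nerve cord but is a tissue apart from the neural cells that the Etr1 enhancer drives. Ciona Mrf is known to make more than one transcript form. The tables hold 1 value per gene model, so these forms were not separated. Because RNA came from whole embryos, a lower value cannot be divided into fewer Mrf-expressing cells and less Mrf RNA per cell.

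Library depth lay between 17689915 and 26460260 recovered reads. The electroporated genes followed the labels on a scale rebuilt over all 15 libraries: Bra (KH.S1404.1) was at 556 to 793 normalised reads in control and 798 to 1618 in the 12 libraries given it. Foxa.a (KH.C11.313) was at 11675 to 14950 normalised reads where it was given. Elsewhere it was at 5304 to 5853 in control, 6531 to 8334 in Bra and 7698 to 9953 in Bra+Mnx. Without being given, Foxa.a was thus called higher than control in Bra+Mnx (log2 difference 0.62 ± 0.12, SE, adjusted p = 0.0489 in limma). In Bra its difference was 0.37 ± 0.13 (adjusted p = 0.413 in limma). With a term for the replicate number added to limma, the replicate block, the adjusted p was 0.000689 in Bra and 0.00268 in Bra+Mnx. Mnx (KH.L128.12) was at 1453 to 2950 normalised reads where it was given. Elsewhere it was at 413 to 569 in control, 366 to 448 in Bra and 224 to 343 in Bra+Foxa.a. Its difference from control in Bra+Foxa.a was -0.79 ± 0.20 (adjusted p = 0.0658 in limma and 0.000246 with the block). The difference of Mnx in Bra, -0.25 ± 0.17, passed in neither fit. These values do not separate plasmid-borne from endogenous transcripts.

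Mrf was well covered in every library. Control replicates 1, 2 and 3 held 2612, 2190 and 2324 Mrf reads, and the lowest count was 1129 in Bra+Mnx replicate 3. Counting alone would give a relative SD of 1.96% to 2.98% for these counts. The coefficient of variation between the 3 replicates of a group was largest in Bra+Mnx (19.1%) and 3-factor embryos (13.9%), and 8.81% in Bra+Foxa.a, 8.11% in Bra and 6.45% in control. The spread between libraries was therefore larger than the counting error in each group.

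Mrf was near the control level in embryos given Bra alone and lower in each group given a partner factor as well. On the scale rebuilt over 15 libraries, control replicates 1, 2 and 3 had 2301, 2299 and 2567 normalised reads. Bra embryos had 2300, 2455 and 2087 in the same replicate order. Bra+Foxa.a embryos had 1643, 1928 and 1685. These 3 libraries lay below each control and each Bra library. Bra+Mnx embryos had 2001, 1900 and 1375 normalised reads. The 3-factor embryos had 1899, 1942 and 1493. In both groups given Mnx, replicate 3 was the low library and replicates 1 and 2 were close to each other.

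As group means, control stood highest at 2389 ± 154 normalised reads (SD, n = 3), followed by Bra at 2281 ± 185, which was 95.5% of control. The 3-factor embryos followed at 1778 ± 248 (74.4% of control), Bra+Mnx at 1758 ± 336 (73.6%) and Bra+Foxa.a at 1752 ± 154 (73.3%). Control and Bra did not differ beyond their spread, and neither did any pair among the 3 groups given a partner factor. The step in this order lay between Bra and the groups with a partner factor. The 9 libraries given Foxa.a, Mnx or both ranged from 1375 to 2001 normalised reads with a median of 1899. The 6 control and Bra libraries ranged from 2087 to 2567 with a median of 2301, so the 2 sets did not overlap. This split was picked after the values were seen and was not tested. Of 14260 genes, 0.491% had the same arrangement, with all 9 libraries below all 6.

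**Figure D1:**
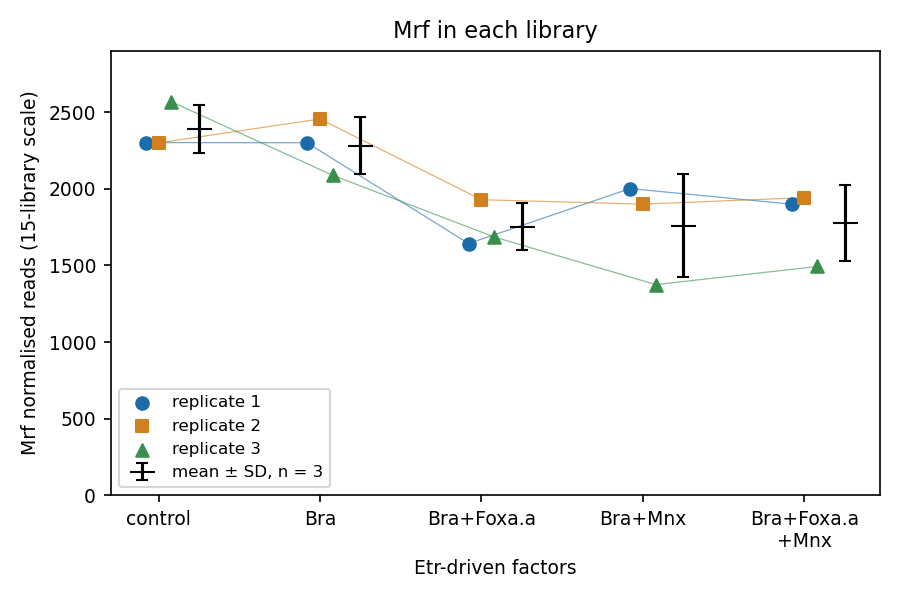
Mrf normalised reads on the scale rebuilt over 15 libraries (vertical axis, from 0) in the 5 groups (horizontal axis). Each symbol is 1 library, coloured lines join libraries of the same replicate number, and black bars are the mean ± SD of 3. The 9 libraries given a partner factor lie at or below 2001 and the 6 others at or above 2087.

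Bra alone was compared with control within the table that holds both, to ask whether Bra in neural tissue went with a change in Mrf. Mrf was at 2214 ± 173 against 2324 ± 155 normalised reads (SD, n = 3), and the groups overlapped. The difference was -0.07 ± 0.11 (log2(value + 1), SE), with a 95% confidence interval from -0.33 to 0.19 and an adjusted p of 1.00 in limma. The interval does not show that the levels were equal. Within replicate numbers 1, 2 and 3 the differences were -0.00493, 0.09 and -0.30, so 2 pairs were below 0, 1 of them by very little, and 1 was above. In this comparison 0.0703% of 14221 genes were called lower. The replicate block, which removes differences shared by libraries of the same number, gave an adjusted p of 0.777, with 2.4% of genes called lower.

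Bra+Foxa.a embryos had 1827 ± 162 Mrf normalised reads against 2490 ± 164 in control. All 3 libraries lay below all 3 controls, as they did for 8.19% of the 14254 genes tested. The difference was -0.45 ± 0.11 on the log2 scale, and 8.005% of genes had a lower one, with a 95% confidence interval from -0.69 to -0.21. It missed the threshold of 0.05 in limma (adjusted p = 0.0519) and passed it with the replicate block (adjusted p = 0.000301). Calls of lower genes made up 1.33% of genes without the block and 12% with it. The 3 within-number differences, -0.49, -0.25 and -0.61, were all below 0.

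Bra+Mnx embryos had 1734 ± 328 Mrf normalised reads against 2363 ± 154 in control, again without overlap, an arrangement shared by 6.20% of 14222 genes. The difference was -0.46 ± 0.15 with a 95% confidence interval from -0.81 to -0.12. Its adjusted p was 0.270 in limma, and 0.0441 when the block was added. The background of genes called lower was 0.394% and 6.57% in these fits. Replicate 3 gave a difference of -0.90, against -0.21 and -0.28 in replicates 1 and 2. Without Bra+Mnx replicate 3 the difference was -0.30, and without replicate number 3 in either group it was -0.24 (adjusted p = 0.982 without and 0.0217 with the block).

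With all 3 factors Mrf was at 1748 ± 242 against 2350 ± 155 normalised reads in control, without overlap, as for 7.53% of 14213 genes. The difference was -0.43 ± 0.12, with a 95% confidence interval from -0.72 to -0.15. Its adjusted p was 0.116 in limma, and 0.0126 when the block was added, where 1.16% and 6.68% of genes were called lower. Within numbers 1, 2 and 3 the differences were -0.28, -0.24 and -0.78. Without replicate number 3 the difference was -0.26 (adjusted p = 0.714 without and 0.0271 with the block). These 4 comparisons share their 3 control libraries, so their agreement is not 4 separate results. In each of them an exact permutation test of 3 against 3 libraries cannot go below a two-sided p of 0.1, which all but Bra alone reached (exact p = 0.4 for Bra).

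Replicate number 3 stood apart for Mrf in a way that differed between groups. Control replicate 3 was the highest control, 0.11 above its group mean on the log2 scale. Replicate 3 was the lowest library of the Bra, Bra+Mnx and 3-factor groups, at -0.12, -0.34 and -0.24 from the group means, and lay at -0.05 in Bra+Foxa.a. Across all genes, libraries of the same number deviated together (r from 0.55 to 0.72 over 30 pairs). For Mrf in the control tables the block did not lower the gene's own spread: its residual SD on the log2 scale went from 0.215 to 0.270 for Bra+Mnx, from 0.162 to 0.213 for all 3 factors, from 0.111 to 0.128 for Bra+Foxa.a and from 0.104 to 0.144 for Bra. The spread that limma used, which is drawn toward that of genes of like level, went from 0.184 to 0.148 for Bra+Mnx, from 0.151 to 0.119 for all 3 factors and from 0.129 to 0.0758 for Bra+Foxa.a. For Bra it went from 0.139 to 0.0957. Among these 4 blocked fits other genes weighed most in that of Bra. There they counted as 38.8 degrees of freedom, against 2 of the gene's own. The calls with the block in the control tables thus rest on the spread of other genes as well as on that of Mrf, most of all where a replicate number was left out.

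**Figure D2:**
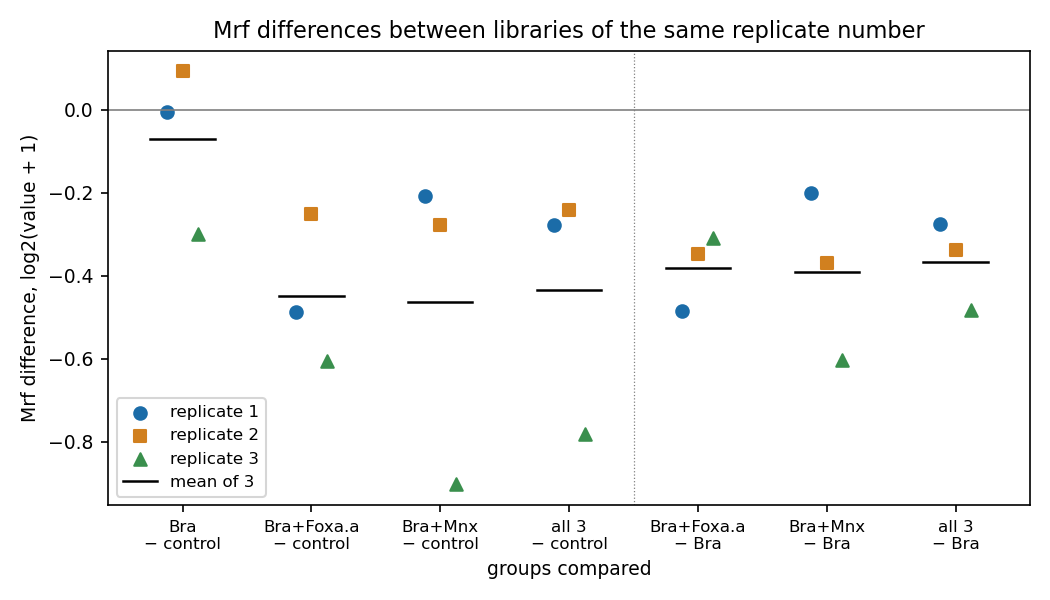
Differences of Mrf (vertical axis, log2(value + 1)) between libraries of the same replicate number, for 4 comparisons with control and 3 with Bra (horizontal axis). Symbols are replicate numbers and black bars are the mean of 3. All differences of the groups given a partner factor lie below 0, and replicate 3 gives the lowest value in each comparison with control.

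All 12 libraries given Bra were set against the 3 controls in a single fit of 15 libraries. The mean of the 4 groups stood at -0.35 ± 0.11 from control on the log2 scale, with a 95% confidence interval from -0.59 to -0.11. The adjusted p was 0.0902 in limma and 0.00363 with the block, and 1.76% and 8.18% of 14260 genes were called lower. An exact permutation test of Mrf alone, two-sided and with labels permuted within replicate number, gave p = 0.024, where 125 arrangements allow a smallest p of 0.008. Of the 12 libraries, 2 were at or above the lowest control, both given Bra alone. Without replicate number 3 the difference was -0.21 (exact permutation p = 0.24), and without number 1 it was -0.41 (exact permutation p = 0.08). With 1 number left out fewer arrangements remain, so the smallest possible p is larger than 0.008.

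The next comparisons asked how Mrf differed when a partner factor was given with Bra. Bra RNA was not equal in these groups. It was at 1070 ± 338 normalised reads (SD) in Bra, 1208 ± 121 in Bra+Foxa.a and 1202 ± 104 in Bra+Mnx. In 3-factor embryos it was at 1541 ± 82.6, a log2 difference from Bra of 0.57 ± 0.18 (adjusted p = 0.289 in limma and 0.00265 with the block). Whether the level of Bra matters for Mrf was not tested. Adding Foxa.a was accompanied by a difference of -0.38 ± 0.14, with a 95% confidence interval from -0.68 to -0.08 and within-number differences of -0.49, -0.35 and -0.31. Its adjusted p was 0.612 in limma and 0.0370 with the block. Adding Mnx went with -0.39 ± 0.14 (95% confidence interval from -0.69 to -0.09), and the 3 pairs gave -0.20, -0.37 and -0.60. Without Bra+Mnx replicate 3 the difference was -0.22. That comparison did not pass in either fit (adjusted p = 1.00, and 0.0750 with the block). Adding both gave -0.37 ± 0.14 (95% confidence interval from -0.67 to -0.06) and pairs of -0.28, -0.34 and -0.48, with an adjusted p of 0.525 in limma and 0.0362 with the block. In each of the 3 comparisons the libraries with a partner factor lay below all Bra libraries, as they did for 3.74%, 2.98% and 5% of genes. Genes called lower were 0.0771%, 0.014% and 0.456% of 14260 without the block and 2.43%, 0.835% and 3.96% with it. The calls with the block for Foxa.a and for both factors ended without replicate number 1 or number 2 (adjusted p from 0.0676 to 0.260). The 3 comparisons share the Bra libraries.

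Among the groups given a partner factor Mrf differed little. The 3-factor embryos stood at 0.01 ± 0.14 from Bra+Foxa.a (95% confidence interval from -0.29 to 0.32) and at 0.03 ± 0.14 from Bra+Mnx (from -0.28 to 0.33). Bra+Mnx stood at -0.01 ± 0.14 from Bra+Foxa.a (from -0.31 to 0.29). None passed with or without the block, the libraries overlapped in all 3, and the intervals still allow differences of at least 0.28 on the log2 scale in either direction. The 4 groups given Bra form a factorial design, with Foxa.a and Mnx each present or absent. Over that design the mean effect of Foxa.a was -0.18 ± 0.10 and that of Mnx -0.19 ± 0.10 (adjusted p = 0.949 and 1.00 in limma, 0.181 and 0.202 with the block). Exact permutation tests within replicate number gave p = 0.194 for Foxa.a and p = 0.157 for Mnx, two-sided. The mean effect of Mnx was -0.10 without Bra+Mnx replicate 3, and that of Foxa.a was -0.12 without 3-factor replicate 3. Each mean effect averages 2 unlike values. For Foxa.a these were -0.38 without Mnx and 0.03 with it, and for Mnx -0.39 without Foxa.a and 0.01 with it. The interaction, which measures how far the effect of both departs from the sum of the separate effects, was 0.41 ± 0.20 with a 95% confidence interval from -0.02 to 0.84. It did not pass (adjusted p = 1.00 in limma and 0.647 with the block), and without Bra+Mnx replicate 3 it was 0.24. With the block its 95% confidence interval, not adjusted for the number of genes, ran from 0.10 to 0.71. The values of the separate additions, -0.38 and -0.39, and of the joint addition, -0.37, are therefore given side by side without a claim that they combine in any particular way.

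**Figure D3:**
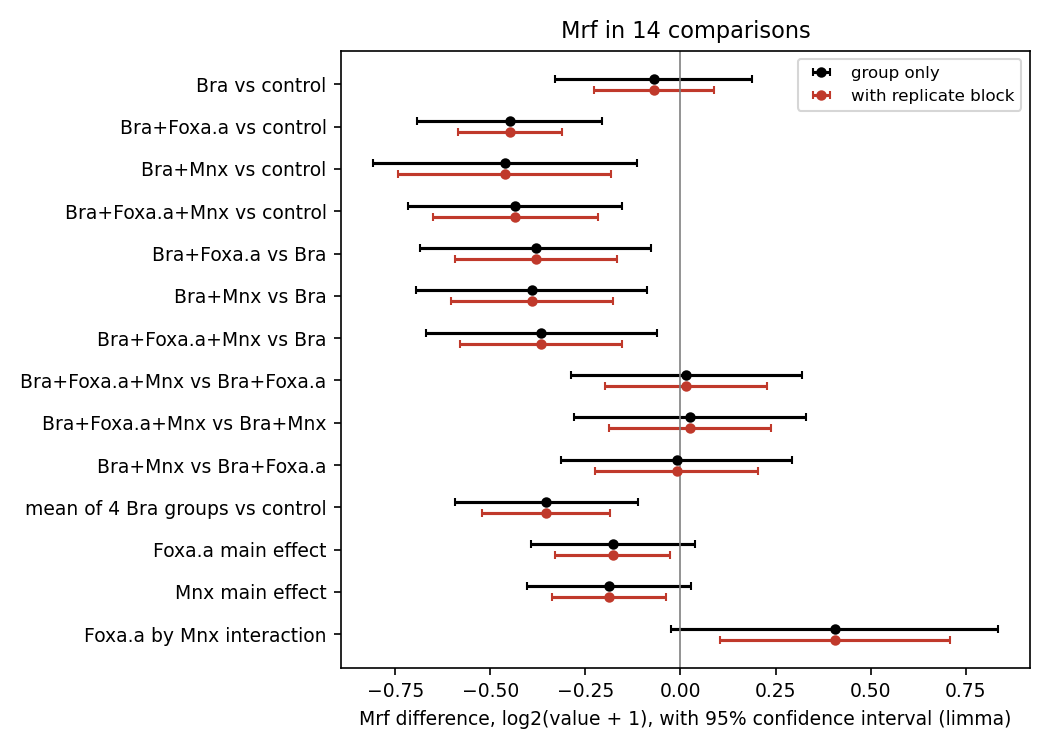
Mrf differences (horizontal axis, log2(value + 1)) with 95% confidence intervals from limma in 14 comparisons (vertical axis), with the group as the only term in black and with the replicate block in red. Bra+Foxa.a+Mnx marks the 3-factor embryos, and the intervals are not adjusted for the number of genes tested. The estimates for the 3 groups with a partner factor against control lie between -0.46 and -0.43, and those against Bra between -0.39 and -0.37.

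Regulators of the heart and pharyngeal muscle lineage were read beside Mrf from a list of 9 gene models, all of which were measured. Because RNA came from whole embryos, the list is not a readout of that lineage alone. How much of each gene's RNA came from it was not tested. Their identifiers were entered by hand, so the membership of the list is uncertain, most of all for the 4 models given below by identifier alone, and so are its counts and medians. None of the 9 was called in Bra against control. Bra+Mnx and Bra+Foxa.a each had 1 lower and 1 higher member, and 3-factor embryos had 1 lower. Of all genes tested, 3.7% were called higher in Bra+Foxa.a, 2.82% in 3-factor embryos, 1.47% in Bra+Mnx and 1.42% in Bra, beside the shares of lower genes given above. The list's median difference from control was -0.27 for Bra+Mnx, -0.14 for 3-factor embryos, 0.00789 for Bra+Foxa.a and -0.15 for Bra, against -0.00522, -0.000448, -0.01 and -0.02 over all genes. With the block, 2 members were lower and 1 higher in Bra, 4 and 2 in Bra+Foxa.a, 5 and 1 in Bra+Mnx, and 2 and 2 in 3-factor embryos. Calls of higher genes with the block made up 7.1%, 12.4%, 6.48% and 7.86% of all genes in these 4 groups.

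The lower member in each case was Ebf (KH.L24.10), a factor that acts in neurons and in the precursors of pharyngeal muscle. Control embryos had 727 ± 97.4 normalised reads of Ebf (SD, n = 3) and embryos given Bra alone 460 ± 31.5. The groups with a partner factor had 265 ± 28.9 (Bra+Foxa.a), 325 ± 15.9 (Bra+Mnx) and 268 ± 64.3 (3-factor). In limma the log2 differences of these 3 groups from control were -1.45 ± 0.15, -1.15 ± 0.14 and -1.46 ± 0.19, with adjusted p-values of 0.00134, 0.00743 and 0.00397. In Bra the difference of Ebf was -0.65 ± 0.14 (adjusted p = 0.0869, and 4.15e-07 with the block). That blocked p-value rests largely on the spread of other genes, as do the other blocked p-values of Bra against control. KH.C6.128 (Celf) lies outside the list. It was entered by hand as the driver gene, the neural gene whose enhancer is in every plasmid. This driver gene was also called lower, in all 4 groups given Bra. It had 9522 ± 953 normalised reads in control and 5650 ± 597 with Bra alone (log2 difference -0.76, adjusted p = 0.0284 in limma). With Foxa.a, Mnx or both added, its differences from control were -1.28, -1.20 and -1.44 (adjusted p = 0.00118, 0.00342 and 0.000638 in limma). Any link of the driver gene's level to the plasmids or to Mrf was not tested. Whether Ebf was lower in neurons or in muscle precursors was not tested. The higher member was KH.C14.604, which had 0.736 ± 1.28 normalised reads in control and reached 14.9 ± 6.43 in Bra+Foxa.a (adjusted p = 0.0191) and 39.0 ± 31.3 in Bra+Mnx (adjusted p = 0.0235). Its 3 libraries of Bra+Mnx ranged from 14.4 to 74.3. In Bra, at 7.78 ± 2.96 normalised reads, it passed with the block alone (adjusted p = 0.169 in limma and 0.00269 with the block). KH.C7.628 had 17.1 ± 9.06 normalised reads in control, 48.7 ± 21.6 in Bra+Mnx and 57.2 ± 24.2 in 3-factor embryos. Its log2 differences from control were 1.47 ± 0.47 and 1.69 ± 0.47 in these groups, with adjusted p-values of 0.254 and 0.109 in limma and 0.0736 and 0.0226 with the block. Foxf (KH.C3.170), a forkhead factor of the migrating heart precursors, had 3413 ± 478 normalised reads in control, and its differences lay between -0.27 and -0.15 in the 4 groups. With the block Foxf passed in Bra+Foxa.a (adjusted p = 0.000877) and Bra+Mnx (adjusted p = 0.00974), against 0.580 and 0.628 without it. KH.L20.1 had 1085 ± 113 normalised reads in control, and its differences in these 2 groups, -0.23 and -0.28, also passed with the block alone (adjusted p = 0.0197 and 0.0436, against 0.536 and 0.476 without it). The homeodomain factor Nkx2-5 (KH.C8.482) had 2299 ± 180 in control and 1655 ± 157 in Bra+Mnx (difference -0.48 ± 0.11, adjusted p = 0.0923, and 0.00781 with the block). Islet (KH.L152.2), a LIM-homeodomain factor shared by neurons and pharyngeal muscle precursors, had 360 ± 49.4 in control and 199 ± 47.4 in Bra+Foxa.a (difference -0.87 ± 0.20, adjusted p = 0.0510, or 4.17e-05 in the blocked fit). With the block Islet passed in the other 3 groups as well, at differences from -0.61 to -0.47. Levels of Hand-r (KH.C1.1116), a basic helix-loop-helix factor of the same lineage, were 427 ± 88.2 in control and 570 ± 78.2 in Bra+Foxa.a (difference 0.43 ± 0.18, adjusted p = 0.316, and 0.00123 with the block). In 3-factor embryos the difference of Hand-r was 0.38 ± 0.21 (adjusted p = 0.590, and 0.0105 with the block). KH.C3.100 was at 7.26 ± 1.83 normalised reads in control and passed in none of the 4 groups with or without the block.

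The gene models whose pattern was most like that of Mrf were sought among 10651 others with a mean of at least 50 normalised reads. Likeness was Pearson's r of log2(value + 1) over the 15 libraries, which share depth scaling and replicate numbers, and it is a description only. KH.C3.751 was most like Mrf at r = 0.93 and KH.C14.330 next at r = 0.93. Of the other genes, 0.854% had an r over 0.8. KH.C3.751 had 3469 ± 374 normalised reads in control and 3188 ± 424 in Bra, and its groups with a partner factor had means of 2246 (Bra+Foxa.a), 2428 (Bra+Mnx) and 2278 (3-factor). Its highest library with a partner factor, 2619, was below its lowest control, 3076, and its lowest Bra library, 2919. KH.C14.330 had 6943 ± 215 normalised reads in control and 6316 ± 635 in Bra, and 4482, 5006 and 4594 in the same 3 groups. Its highest library with a partner factor, 5748, was below its lowest control, 6789, but above its lowest Bra library, 5602. With the mean of each replicate number subtracted, KH.C3.751 was again first at r = 0.96 and KH.C1.1153 second at r = 0.94. KH.C1.1153 was at 96.3 ± 20.5 normalised reads in control and 55.6 ± 28.1 in Bra+Mnx, and its replicate 3 was the lowest library of every group.

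**Figure D4:**
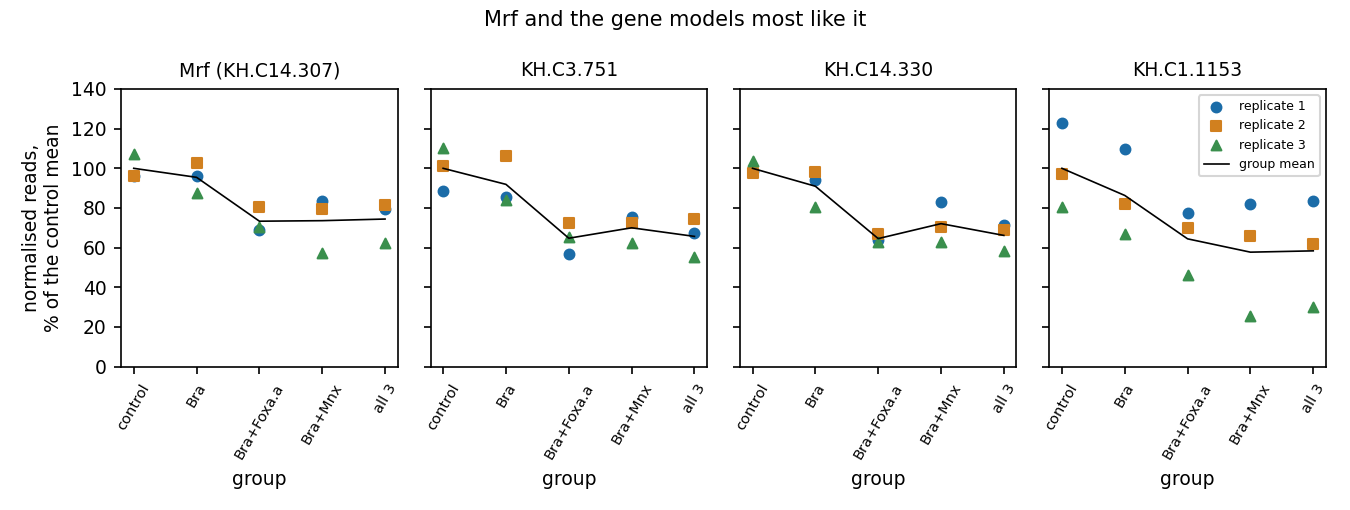
Normalised reads as a percentage of each gene's control mean (vertical axis) in the 5 groups (horizontal axis) for Mrf and the 3 gene models most like it, chosen by r. Symbols are libraries by replicate number and lines join group means. In all 4 panels the group means step down between Bra and the groups with a partner factor.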

How the data were processed

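Mrf and the gene list were chosen with earlier results of these data known. The authors deposited 4 tables, each with 1 group given Bra and the 3 controls. Per the file headers, the first block of columns holds counts normalised to library size, a signal scaled separately in each table, and the second block holds regularized log2 values by the authors. Per the submitters' processing notes, DESeq 1.8.1 and TopHat2 2.9.8b were used, and for the build, read counter and strand setting nothing was given in the sources used here. Dividing each of 24 columns by its step gave whole numbers within 0.01 for 100% of values, and the recovered control reads were identical in all 4 tables.

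Comparisons with control were fitted within a table by limma 3.58.1 (R 4.3.3, limma-trend), using log2(value + 1) of all genes whose mean was at least 1, with group as the only term, two-sided, and Benjamini-Hochberg adjustment over all genes at 0.05. Other comparisons used recovered reads of 15 libraries divided by median-of-ratios size factors, in 1 fit. Fold changes on this scale understate the change of genes with few reads. Fits were tested on simulated data. Alternatives were the replicate block, pseudocounts, filters, TMM, edgeR 4.0.16, DESeq2 1.42.0, left-out libraries and, chosen after seeing the data, the block without 1 replicate number and the authors' log2 values.

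Replicate numbers were taken from the titles. Deviations from group means correlated between 0.55 and 0.72 in all 30 same-number pairs of libraries, so the numbers were taken to pair the samples. In 60 other pairs r lay between -0.44 and -0.12. These negative values add no support, because deviations from a group mean sum to 0 within the group. The labels call the replicates biological and say no more, so p-values measure the spread between these samples, which may be partly technical. Genes named were Mrf, the listed genes, the electroporated genes with KH.C6.128 read beside them, and the 2 gene models with the highest r to Mrf by each of 2 measures.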

Additional observations from a re-analysis of the deposited data

How the results depend on the processing

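The replicate block, in limma within each table, in the 15-library limma fit and in edgeR, brought Mrf past the threshold in Bra+Foxa.a (-0.45 in each, adjusted p from 0.000301 to 0.00337), Bra+Mnx (-0.46, -0.46 and -0.45, adjusted p from 0.00405 to 0.0441) and 3-factor embryos (-0.43 in each, adjusted p from 0.00408 to 0.0126) against control. The mean of the 4 Bra groups passed with the block at -0.35 in limma and in edgeR (adjusted p = 0.00363 and 0.00235). So did Bra+Foxa.a against Bra (-0.38 in both, adjusted p = 0.0370 and 0.0279) and 3-factor against Bra (-0.37 and -0.36, adjusted p = 0.0362 and 0.0307). The authors' regularized log2 values, which are shrunken, gave -0.28 for Bra+Foxa.a and -0.27 for 3-factor embryos, past the threshold with the block (adjusted p = 0.000542 and 0.0126). Bra+Mnx on that scale did not pass with the block (adjusted p = 0.0541). Without the block, of the tools and settings run DESeq2 alone made calls, for Bra+Foxa.a against control (-0.45, adjusted p = 0.0372) and for the mean of the 4 Bra groups (-0.35, adjusted p = 0.0441). The near-zero difference of Bra+Mnx from Bra+Foxa.a changed sign in edgeR (0.00648) and DESeq2 (0.00659), and the cause was not tested. Other pseudocounts, filters on low values and TMM scaling changed no side of the threshold.

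Leaving out 1 library or 1 replicate number, with or without the block, gave ranges of -0.15 to 0.0436 for Bra, -0.55 to -0.37 for Bra+Foxa.a, -0.59 to -0.24 for Bra+Mnx and -0.53 to -0.26 for 3-factor embryos against control. Against Bra the ranges were -0.45 to -0.33 for Bra+Foxa.a, -0.49 to -0.22 for Bra+Mnx and -0.43 to -0.24 for 3-factor embryos. The differences among groups with a partner factor changed sign, from -0.0822 to 0.14 for 3-factor against Bra+Foxa.a, -0.14 to 0.15 against Bra+Mnx (-0.0218 without replicate number 3) and -0.16 to 0.16 for Bra+Mnx against Bra+Foxa.a (0.13 without number 3). The mean of the 4 Bra groups ranged from -0.44 to -0.21, and its exact permutation p from 0.04 to 0.24, on fewer arrangements than the full test. With the block and 1 replicate number left out, all 3 groups with a partner factor passed against control, at adjusted p-values up to 0.0445. Differences included -0.56 for Bra+Mnx without number 2 and -0.51 for 3-factor embryos without number 1. Each of these fits within a table holds 2 pairs of libraries. Its p-value therefore rests largely on the spread of other genes and cannot show that the result is stable. The mean of the 4 groups passed too, at -0.41 without number 1 (adjusted p up to 0.0373). The calls against Bra held when number 3 was left out and not when number 1 or 2 was, at -0.42 for Bra+Foxa.a and -0.31 for 3-factor embryos. With labels permuted over all libraries, the exact p was 0.0308 for the 12 Bra libraries, 0.219 for Foxa.a and 0.188 for Mnx. The mean effect of Mnx ranged from -0.28 to -0.0878 and the interaction from 0.24 to 0.53, and neither passed. The mean effect of Foxa.a ranged from -0.26 to -0.12 and passed in 1 of these fits, with the block and without replicate number 3 (-0.22, adjusted p = 0.0252). Genes called rose with the block from 212 to 1351 in Bra, from 718 to 3472 in Bra+Foxa.a, from 265 to 1856 in Bra+Mnx and from 566 to 2066 in 3-factor embryos against control. Against Bra the block took them from 42 to 673 for Bra+Foxa.a, from 4 to 189 for Bra+Mnx and from 120 to 928 for 3-factor embryos, and from 912 to 2696 for the mean of the 4 groups against control. Without the block, DESeq2 called 469, 1154, 723 and 932 genes in Bra, Bra+Foxa.a, Bra+Mnx and 3-factor embryos against control, and edgeR 320, 881, 481 and 661. The block changed no other call of Mrf. Counting error was smaller than the spread between libraries, and 3 libraries per group limit the precision.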
